A study of Mus musculus with 6 samples.

Results

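The genes described here encode interferon-inducible GTPases of 2 families, the immunity-related GTPases (IRGs) and the guanylate-binding proteins (GBPs). The 6 IRG genes are Irgm1, Irgm2, Igtp, Iigp1, Tgtp2 and Ifi47, and the 4 GBP genes are Gbp2, Gbp3, Gbp7 and Gbp9. They were taken by gene symbol, and all 10 were found among the 52550 genes listed for each library. All 10 passed the filter on low values (3 or more of the 6 libraries at 1 or above), as did 20136 genes in all.

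Messenger RNA was sequenced from primary bone marrow cells of mice labelled as hematopoietic stem cells, 3 wild-type (WT) and 3 knockout (KO) libraries. The WT genotype is given as Ppp2caf/f, floxed alleles of the gene that encodes the alpha isoform of the PP2A phosphatase's catalytic subunit. The KO genotype is given as VAV1crePpp2caf/f, the same floxed alleles with Cre under the Vav1 promoter. That promoter is active in blood cells from early development, so the deletion is expected in other blood cells of these mice too. Deletion in those cells was not measured here. No treatment, age or infection is named, the surface markers used for isolation are not given in the sources used here, and separate mice are not stated as the source of the replicates, so p-values measure the spread between libraries, which may be technical.

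The libraries held 37951985 to 58692037 reads over genes, and 20051 to 21362 genes were above 0. Values are gene read counts divided by 1 size factor per library, called normalised read counts. Ppp2ca itself stood at 32909, 33451 and 33169 in the WT and at 23728, 22419 and 24046 in the KO libraries, 70.5% of WT (log2 fold change −0.50 ± 0.07 SE, adjusted p = 0.00268, limma). Counts over a whole gene include exons outside the floxed part, so this value does not measure how many cells lost the gene. All 12 listed stem cell genes, such as Mecom and Slamf1, were above 0 in WT and fell in KO, and their summed value was 87747 to 100526 in WT and 31285 to 49243 in KO. Of 8 granulocyte progenitor genes 7 rose, with sums of 1263748 to 1493924 in WT and 1875316 to 2090232 in KO. Among all 20136 genes tested, 13.0% were lower and 10.3% higher (limma, adjusted p below 0.05). Such sums are weighted towards the genes with the highest values.

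As background, interferon gamma binds the receptor pair IFNGR1 and IFNGR2, which signals through the kinases JAK1 and JAK2 to 2 kinds of promoter element. These are the gamma-activated site (GAS) and the interferon-stimulated response element (ISRE), which is bound by interferon regulatory factors (IRFs). IRG and GBP genes are among the most strongly induced targets of this pathway, and their products load onto the membrane around intracellular parasites and bacteria and break it. Within the IRGs, the regulatory IRGM proteins sit on the cell's own membranes and hold the effector IRGs inactive there. In hematopoietic stem cells, Irgm1 is known from knockout mice to restrain proliferation driven by interferon.

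In KO, 8 of the 10 genes fell, 0 rose and 2, Ifi47 and Gbp3, did not pass the test (limma, adjusted p below 0.05). Among all genes tested, 13.0% were lower, 10.3% higher and 23.3% changed in either direction by the same rule. The median log2 fold change was −0.82 over the 10 genes and −0.02 over all genes tested. No member was higher at an unadjusted p below 0.05 or in edgeR or DESeq2 (0 in each), and both count tests called 8 lower. The fall ranged from 5.92% of the WT mean for Gbp9 to 69.2% for Gbp7, and 4 genes, Gbp9, Iigp1, Tgtp2 and Gbp2, fell at least 2-fold, against 8.30% of all genes. For 9 of the 10, all but Ifi47, every KO library lay below every WT library, which held for 21.7% of all genes. In RNA from a population, fewer cells of a type and less RNA per cell cannot be told apart.

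Promoter sequence was available in the RefSeq promoter table (GRCm38.p6) for 8 of the 10 genes, not for Iigp1 and Gbp9. The 100 bases before the RefSeq transcription start are printed below 5′ to 3′ on the gene's strand, because most of these windows hold the elements through which interferon is known to act. Capitals mark matches to the ISRE core, GAAA repeated after any 2 bases, or to the GAS, TTC and GAA with any 3 bases between them, searched on both strands. A core on the opposite strand reads as TTTC repeated after 2 bases, and the GAS pattern is the same on both strands. Where cores overlap, the capitals run on through both.
Irgm1 (chr11:48871421-48871520, minus strand): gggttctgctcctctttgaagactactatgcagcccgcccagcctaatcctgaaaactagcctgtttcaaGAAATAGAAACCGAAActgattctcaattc
Irgm2 (chr11:58214877-58214976, plus strand): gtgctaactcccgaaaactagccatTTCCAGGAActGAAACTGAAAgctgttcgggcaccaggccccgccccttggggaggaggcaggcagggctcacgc
Igtp (chr11:58199456-58199555, plus strand): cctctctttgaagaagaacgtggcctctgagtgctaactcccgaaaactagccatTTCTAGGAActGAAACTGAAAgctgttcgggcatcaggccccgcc
Tgtp2 (chr11:49064213-49064312, minus strand): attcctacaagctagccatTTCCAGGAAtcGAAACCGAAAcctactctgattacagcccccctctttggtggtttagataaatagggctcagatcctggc
Ifi47 (chr11:49076487-49076586, plus strand): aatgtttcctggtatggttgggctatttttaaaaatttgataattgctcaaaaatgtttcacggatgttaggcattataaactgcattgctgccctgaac
Gbp2 (chr3:142620563-142620662, plus strand): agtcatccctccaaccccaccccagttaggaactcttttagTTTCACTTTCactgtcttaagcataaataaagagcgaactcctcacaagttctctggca
Gbp3 (chr3:142559944-142560043, plus strand): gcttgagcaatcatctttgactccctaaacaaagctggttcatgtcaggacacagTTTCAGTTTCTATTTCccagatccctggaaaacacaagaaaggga
Gbp7 (chr3:142530236-142530335, plus strand): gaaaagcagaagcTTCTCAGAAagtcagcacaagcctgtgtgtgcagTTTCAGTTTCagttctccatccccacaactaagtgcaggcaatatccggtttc

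The windows differ in how these elements are arranged. In Irgm2, Igtp and Tgtp2, a GAS is followed after 2 bases by an ISRE core, which lies 64 to 55 bases before the start in Irgm2, 34 to 25 in Igtp and 70 to 61 in Tgtp2. In Gbp7, the ISRE core at 53 to 44 bases lies on the opposite strand, with a GAS at 87 to 79 and another, outside the printed window, at 106 to 98. Irgm1 and Gbp3 each hold a pair of overlapping ISRE cores and no GAS, and Gbp2 holds a single core at 59 to 50 bases. Ifi47, whose WT libraries differed the most of the 10 genes, had no match to these letters in the 250 bases before the start.

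An ISRE core thus stood within 100 bases of the start in 7 of 8 genes, against 0.983% of the 32851 mouse promoters in the table. A GAS stood there in 4 of 8, against 2.55%, and both in 4 of 8, against 0.0457%. The table holds a second promoter for Gbp3, with neither element, so counted per promoter, as the background is, the core stood in 7 of 9, a GAS in 4 of 9 and both in 4 of 9. The windows are not independent: Igtp and Irgm2 were identical at 194 of 220 aligned bases (88.2%). A match to these letters is a description of the sequence and not a measured binding site. Genes with both elements fell to between 21.2% of WT (Tgtp2) and 69.2% (Gbp7), and genes with the ISRE core alone to 29.0% (Gbp2) and 54.3% (Irgm1), with Gbp3 at 87.3% and not passing the test.

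**Figure D1:**
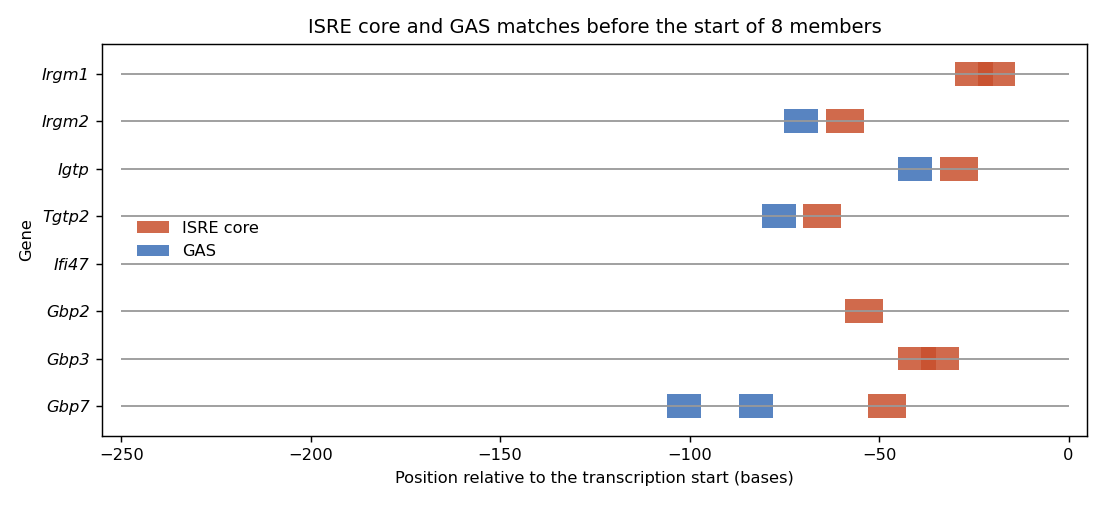
Matches to the ISRE core (orange) and the GAS (blue) in the 250 bases before the RefSeq transcription start of 8 genes; the horizontal axis is the distance from the start in bases. The cores of 7 genes lie within 100 bases of the start, and the line of Ifi47 holds no match.

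The 3 regulatory IRGM genes fell together and by similar amounts, to between 54.3% and 60.7% of WT. Irgm1 (ENSMUSG00000046879.7, chr11:48861968-48871683, minus strand, GRCm38) stood at 5739.6, 4936 and 6034 in WT and 2705, 3440.3 and 2928 in KO. That is a mean of 5569.8 ± 568 (SD, n = 3) against 3024 ± 377, a log2 fold change of −0.88 ± 0.12 (SE, limma adjusted p = 0.00289). All KO libraries lay well below the lowest WT library.

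Igtp, also called Irgm3 (ENSMUSG00000078853.8, chr11:58199556-58207591, plus strand), stood at 4131, 3463 and 3119.5 in WT and 2056, 2199.6 and 2244 in KO. The KO libraries were close to one another and the fold change was −0.71 ± 0.12 on the log2 scale (limma adjusted p = 0.00604). Irgm2 (ENSMUSG00000069874.7, chr11:58199618-58222782, plus strand) overlaps Igtp on the same strand and stood at 1647, 1350.3 and 1169 in WT and 932, 806 and 775 in KO. Its groups did not overlap, and the log2 fold change was −0.72 ± 0.16 (limma adjusted p = 0.0158). Of the 50-base words in the exons of Igtp, 11.8% also occur in Irgm2, so the values of these genes are not fully separate. The call of Irgm2 was lost without KO replicate 3 (adjusted p = 0.0679) and without the intensity trend (adjusted p = 0.0542), in a range of 0.000518 to 0.0679 over 18 alternative fits.

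The effector IRGs differed from one another. Iigp1, or Irga6, which binds the parasite's vacuole and opens it (ENSMUSG00000054072.11, chr18:60376029-60392627, plus strand), stood at 1547, 848 and 774 in WT and at 51.4, 103 and 63.8 in KO. The highest KO library lay far below the lowest WT library, although WT replicate 1 was nearly as high as the other WT libraries together. The KO mean of 72.8 ± 27.0 was 6.89% of the WT mean of 1056 ± 427 (log2 fold change −3.83 ± 0.36, limma adjusted p = 0.000804), and all 18 alternatives called it.

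Tgtp2, or Irgb6, another effector IRG (ENSMUSG00000078921.3, chr11:49057194-49064206, minus strand), had the highest mean WT level per length of the 10. It stood at 14329.7, 9327 and 10924 in WT and 2392, 2634 and 2299 in KO, 21.2% of the WT mean (log2 fold change −2.22 ± 0.16, limma adjusted p = 0.000428). The KO libraries differed little, and WT replicate 1 was again the highest. Tgtp2 has a near copy, Tgtp1: 86.6% of the 50-base words and 76.8% of the 100-base words in its exons also occur in other genes, nearly all of them in Tgtp1, so the split of reads between the pair is uncertain. The summed value of the pair does not depend on that split and was 18393 ± 4208 in WT and 3757 ± 298 in KO, 20.4% of WT.

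Ifi47, or Irgd, the remaining effector IRG (ENSMUSG00000078920.3, chr11:49076587-49096974, plus strand), stood at 8208, 9659.7 and 3776 in WT and at 6837, 3054 and 2944 in KO. WT replicate 3 lay below KO replicate 1, so the groups overlapped. The KO mean was 59.3% of WT, as for the IRGM genes, but the log2 fold change of −0.76 ± 0.42 did not pass the test (limma adjusted p = 0.242). Leaving out 1 library moved it both ways. It was −1.17 without WT replicate 3 (adjusted p = 0.0781) and −1.16 without KO replicate 1 (adjusted p = 0.0732), but −0.50 without WT replicate 2 (adjusted p = 0.514), −0.55 without KO replicate 3 (adjusted p = 0.499), −0.58 without KO replicate 2 (adjusted p = 0.449) and −0.61 without WT replicate 1 (adjusted p = 0.473). Of the 18 alternatives only the fit with library quality weights called it (−1.14, adjusted p = 0.0350).

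The 4 GBP genes spanned the whole range. Gbp9 (ENSMUSG00000029298.15, chr5:105077630-105139539, minus strand) stood at 289, 236 and 249.8 in WT and at 20.4, 10.8 and 14.7 in KO, where the reads behind the values were 19, 11 and 17. The KO libraries were all low, at 5.92% of the WT mean (log2 fold change −4.03 ± 0.36, limma adjusted p = 0.000745). Its annotated span overlaps Gbp4 and Gbp8 on the same strand, with which 3.04% and 4.42% of its 50-base words are shared.

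Gbp2, a GBP that gathers on parasite vacuoles (ENSMUSG00000028270.12, chr3:142620602-142638008, plus strand), stood at 2341, 1297 and 1737 in WT and 428, 617 and 512 in KO. The groups were well apart, at 29.0% of WT (log2 fold change −1.76 ± 0.24, limma adjusted p = 0.00251). Gbp7, known for a part in assembly of the phagocyte oxidase (ENSMUSG00000040253.15, chr3:142530342-142550149, plus strand), stood at 6075, 4678 and 4566 in WT and 3261, 3692 and 3644 in KO. It fell to 69.2% of WT (log2 fold change −0.52 ± 0.13, limma adjusted p = 0.0235), and its adjusted p was 0.0667 without KO replicate 1, 0.0709 without KO replicate 3, 0.0506 with the replicate number as a block and 0.0913 without the intensity trend. Over the 18 alternatives its adjusted p lay between 0.00226 and 0.0913.

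Gbp3 (ENSMUSG00000028268.14, chr3:142560026-142573209, plus strand), which lies between Gbp7 and Gbp2, stood at 4825, 5485 and 4784 in WT and at 4371, 4392 and 4419 in KO. The KO libraries were nearly equal and all below WT, but the difference was small, 87.3% of WT (log2 fold change −0.19 ± 0.09, limma adjusted p = 0.160). None of the 18 alternatives called it, with adjusted p from 0.0578 to 0.374.

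**Figure D2:**
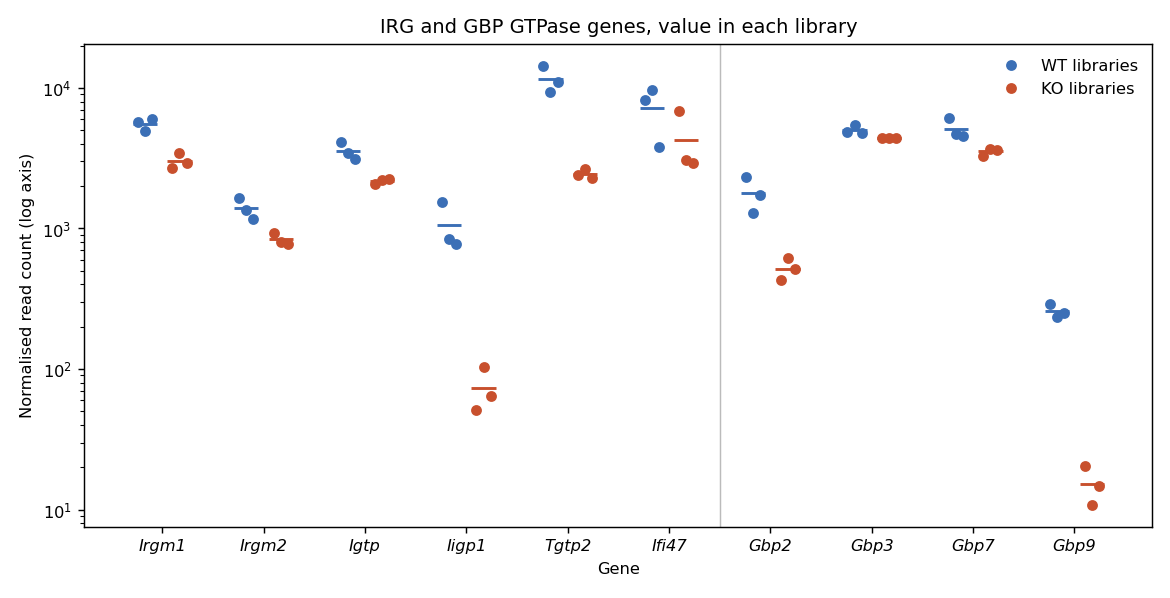
Normalised read count (log axis) of each of the 10 genes in each WT (blue) and KO (red) library, with a line at the mean of each group of 3; IRG genes are left of the vertical line and GBP genes right of it. The groups of Ifi47 overlap, those of Gbp3 are close, and Iigp1 and Gbp9 are the furthest apart.

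Divided by exon length, the WT levels were highest for Tgtp2, at 3923 ± 869.8 normalised reads per kb, followed by Ifi47 (2917), Igtp (1766) and Gbp3 (1541). Neighbours in this group of 4 overlapped in their ranges over libraries. Irgm1 (959), Gbp7 (909.6) and Gbp2 (712) formed a second group whose neighbours overlapped, and Irgm2 (376), Iigp1 (181) and Gbp9 (49.9) each stood apart from the gene above. In KO, Tgtp2 stood at 831 ± 58.9 per kb, behind Ifi47 (1730.0), Gbp3 (1346) and Igtp (1071), and Iigp1 (12.5) and Gbp9 (2.95) remained the lowest. The gap between the highest and the lowest gene of the 10 was wide in both groups.

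The libraries of 1 group did not move in step over all 10 genes. WT replicate 1 was the highest WT library for 7 genes, WT replicate 2 for Ifi47 and Gbp3 and WT replicate 3 for Irgm1. In KO, the highest library was replicate 2 for 5 genes, replicate 1 for 3 and replicate 3 for 2. Summed over the 10 genes, the value was 49132, 41279 and 37133 in WT and 23053, 20948 and 19842 in KO, so every KO sum lay below every WT sum.

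Ratios of 2 members within a library do not depend on the size factor, and 6 such ratios were computed for pairs chosen with the values known. Iigp1 stood at 94.0%, 62.8% and 66.2% of Irgm2, a regulator, in the WT libraries and at 5.52%, 12.8% and 8.24% in KO. Tgtp2 stood at 249.7%, 189% and 181% of Irgm1 in WT and at 88.4%, 76.6% and 78.5% in KO. Ifi47, the other effector, stood at 143%, 196% and 62.6% of Irgm1 in WT and at 253%, 88.8% and 101% in KO, so these groups overlapped and KO replicate 1 was the highest of all (two-sided exact permutation p = 1.0). The first 2 ratios were lower in every KO library than in any WT library, and the third was not.

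Among the GBPs, Gbp9 stood at 5.99%, 4.30% and 5.22% of Gbp3 in WT and at 0.466%, 0.246% and 0.332% in KO. Gbp2 stood at 48.5%, 23.6% and 36.3% of Gbp3 in WT and at 9.78%, 14.0% and 11.6% in KO. Tgtp2 stood at 175%, 96.6% and 289% of Ifi47 in WT and at 35.0%, 86.2% and 78.1% in KO. For each ratio but that of Ifi47 to Irgm1 the groups did not overlap. The two-sided exact permutation test then gave p = 0.1 (0.12 after adjustment over the 6). That is the smallest p that 3 against 3 libraries allow, so none can reach 0.05. Because the pairs were picked with the values known, this separation describes them and is not a test of a difference between members.

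Of 20 other IRG and GBP family genes, 17 were tested, 14 fell and 0 rose (13.0% and 10.3% over all genes). The median of the 17 log2 fold changes was −3.58. Here too no gene was higher at an unadjusted p below 0.05 or in either count test (0 in each), and edgeR called 13 and DESeq2 15 lower. Irgc1 and Gbp2b were at 0 in all libraries and Gm12187 was too low to test. F830016B08Rik, Gbp10 and Gbp11 passed the filter through the WT libraries alone, so that they had to differ. Not counting them, 11 of 14 fell and 0 rose, with a median of −3.40. These 3 were at 0 in all KO libraries, which against a floor of 3 reads per library is at least 40.2-fold, 28.2-fold and 16.7-fold lower. Leaving out 1 library left between 10 and 15 of the 17 called, and 9930111J21Rik1, 9930111J21Rik2, Gm4841 and Gm5431 lost their call without WT replicate 1 and without WT replicate 2, with adjusted p up to 0.0665, 0.133, 0.0631 and 0.0953 over all alternatives.

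Most of the 30 genes lie in a few clusters. On chromosome 5, between 105014150 and 105346472, lie 6 GBP genes. Gbp10 and Gbp11 are 2 of the genes whose fall was fixed by the filter, and the other 4, Gbp4, Gbp6, Gbp8 and Gbp9, all fell. The summed value of the 6 in KO, with Gbp10 and Gbp11 included, was 2.43% of WT. Gbp4 stood at 299, 216 and 271 in WT and 0, 19.6 and 0 in KO, Gbp6 at 677, 347 and 673 against 0, 14.7 and 6.90, and Gbp8 at 248, 285 and 343 against 5.36, 17.7 and 0. All WT libraries held these genes well above every KO library. Gbp6, Gbp10 and the annotated gene Gm43302, whose span overlaps both, share long stretches. Gm43302 holds 65.0% of the 50-base words of Gbp6 and 72.1% of those of Gbp10, and Gbp6 holds 73.3% of those of Gbp10, so reads may be split among the 3.

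On chromosome 3, between 142493978 and 142638008, 4 of 5 GBP genes were tested, and Gbp2 and Gbp7 fell while Gbp3 and Gbp5 did not pass the test. The summed value there was 70.3% of WT. Gbp5, a GBP known to promote inflammasome assembly, stood at 325, 176 and 179 in WT and 89.0, 154 and 63.0 in KO (log2 fold change −1.18 ± 0.41, limma adjusted p = 0.0746). Gbp2 had the lowest share of the 4, 29.0% of WT. On chromosome 5, the shares of the 4 genes whose fall was not fixed by the filter ran from 1.27% (Gbp6) to 5.92% (Gbp9). This difference between clusters was not tested.

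Of the 4 IRG genes on chromosome 18, between 60212080 and 60392627, F830016B08Rik had to fall by the filter, and the other 3, Gm4951, Gm4841 and Iigp1, fell. The sum of the 4, with F830016B08Rik included, was 6.49% of WT. Gm4951, which shares some sequence with Iigp1, stood at 393, 195 and 198 in WT and 17.1, 22.6 and 19.8 in KO, 7.58% of WT. Its KO libraries were close to one another, and WT replicate 1 was the highest, as for Iigp1.

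On chromosome 11, 7 of 8 tested genes between 48861968 and 49096974 fell, all but Ifi47, with a sum of 35.8% of WT. Tgtp1 stood at 8698, 5485 and 6417 in WT and 1205, 1468 and 1275 in KO, 19.2% of WT, and Gm12185, whose span overlaps Tgtp1, at 3.78% of WT. The 3 genes between 58187739 and 58222782, Gm12250, Igtp and Irgm2, fell to 33.4%, 60.7% and 60.3%. Gm12250, or Irgb10, an effector IRG, stood at 986, 826 and 961 in WT and 259, 338 and 329.6 in KO, below the share of the neighbouring regulators. Both clusters lie on the chromosome of Ppp2ca, with the starts of the members 3.02 to 6.10 Mb from its start.

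Irgq on chromosome 7, a divergent IRG-like gene, stood at 451, 450.1 and 339 in WT and 372, 576 and 599.7 in KO. Its groups overlapped and it did not pass the test (log2 fold change 0.30 ± 0.23, limma adjusted p = 0.418).

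**Figure D3:**
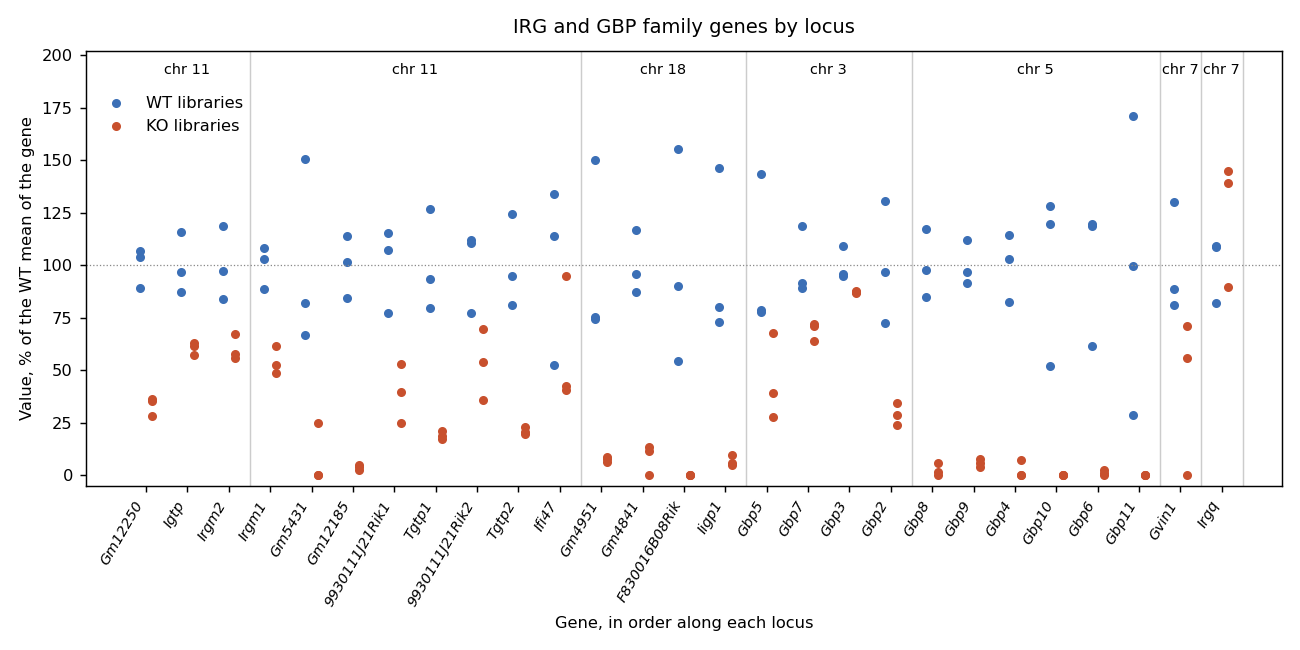
Value in each library of each IRG and GBP gene with a WT mean of at least 5, as a percent of that mean (dotted line at 100). Genes are in order along each chromosome cluster, and WT libraries are blue and KO libraries red. The KO libraries of the genes on chromosomes 18 and 5 lie near 0, while Gbp3 reaches 87.3% and Irgq 125% of WT in the mean. For F830016B08Rik, Gbp10 and Gbp11 the fall was fixed by the filter.

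The files hold 136 genes that start within 500 kb of a member and are not among the 30 listed family genes. Of these 61 were tested, 9 fell and 5 rose, and the median of their log2 fold changes was 0.02. These counts were near the shares over all genes tested, 13.0% lower and 10.3% higher. By chromosome, 2 of 30 fell and 4 rose on chromosome 11, 2 of 10 fell on chromosome 18, 1 of 12 fell and 1 rose on chromosome 3, and 4 of 9 fell on chromosome 5. The 4 on chromosome 5 were Zfp951, Gm43302, Abcg3 and Lrrc8c, and Gm43302 is not separate from the family, since it shares most of the sequence of Gbp6 and Gbp10. Not counting it, 8 of 60 fell, and 3 of 8 on chromosome 5. Cd74, which fell to 11.3% of WT on chromosome 18, is also counted below among the other targets of interferon gamma. Abcg3, an ATP-binding cassette transporter gene, stood at 554, 319.7 and 561 in WT and 25.7, 27.5 and 1.73 in KO.

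Of 20 listed genes of interferon gamma signalling 19 were tested, 7 fell and 1 rose (13.0% and 10.3% over all genes). The median log2 fold change was −0.38. The receptor chain Ifngr1 rose, from 24219, 26628 and 23924 in WT to 39627, 29688 and 35998 in KO (log2 fold change 0.49 ± 0.11, limma adjusted p = 0.0205), and Ifngr2 did not pass the test (adjusted p = 0.621). The groups of Ifngr1 did not overlap, but the call was lost when replicate 1 or replicate 3 of either group was left out and in 2 further fits, with log2 fold changes of 0.20 to 0.60 and adjusted p of 0.00148 to 0.237 over the 18.

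The receptor kinases fell, Jak1 to 72.9% and Jak2 to 68.2% of WT, and Jak1 lost its call without the intensity trend (limma adjusted p = 0.0682). Irf2, an IRF that binds the ISRE, fell to 45.9% (1916, 1419 and 1706 against 832, 692 and 791), and Irf8, an IRF of monocyte and dendritic cell development, fell to 47.9%. Irf1, the IRF best known as an induced activator of GBP genes, stood at 2517, 2974 and 2356 in WT and 3329.9, 1765 and 1374 in KO. KO replicate 1 was the highest of all libraries for Irf1 and the groups overlapped (log2 fold change −0.38 ± 0.29, limma adjusted p = 0.419).

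Of the negative regulators, Cish fell to 29.7% and Pias1 to 75.4%, while Socs1, Socs3, Ptpn2, Ptpn6 and Ptpn11 did not pass the test. The call of Cish was lost without WT replicate 2 (limma adjusted p = 0.0610), WT replicate 3 (0.0589), KO replicate 3 (0.0588) or the intensity trend (0.0555), and that of Pias1 without KO replicate 3 (0.0552) or the trend (0.0703). Ciita, the activator of MHC class II genes, stood at 64.3, 95.2 and 66.2 in WT and 25.7, 25.5 and 3.45 in KO (log2 fold change −2.35 ± 0.74, limma adjusted p = 0.0548). The interferon gamma gene itself, Ifng, was at 4.68, 12.4 and 0 in WT and 0 in all KO libraries, too low to test.

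**Figure D4:**
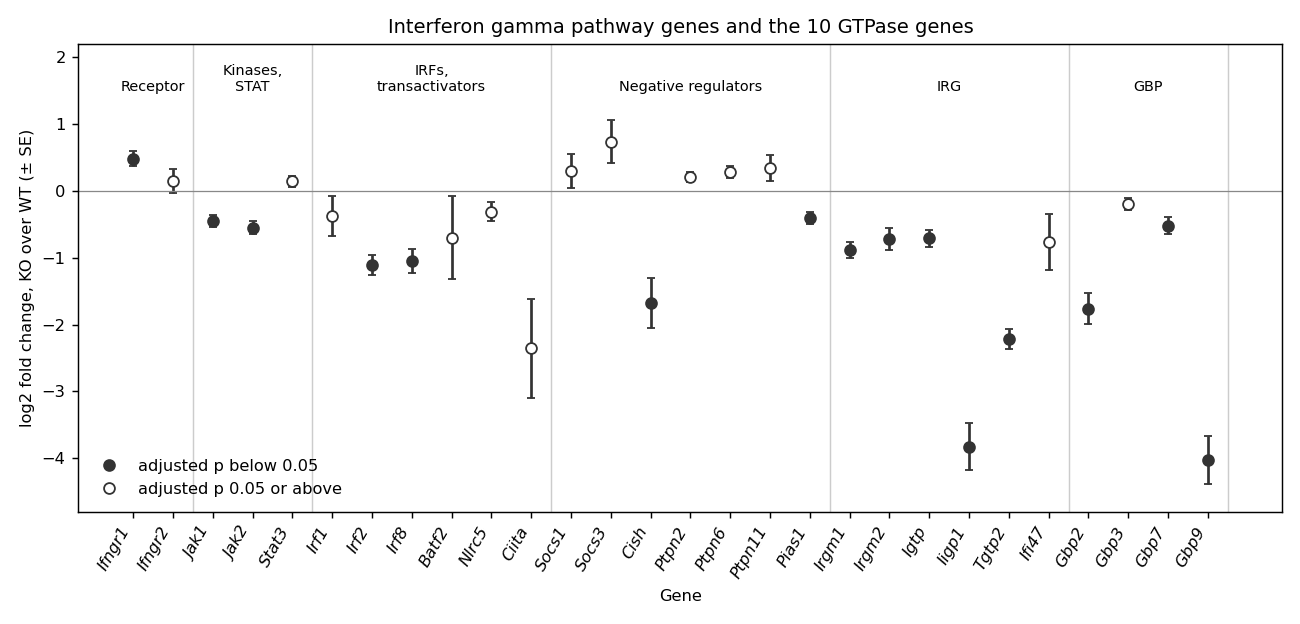
Log2 fold change (KO over WT) with its standard error, from limma on 3 libraries a group, for genes of interferon gamma signalling and the 10 GTPase genes; filled points have an adjusted p below 0.05. Iigp1 and Gbp9 lie near −4, below every signalling gene, and Ifngr1 is the only filled point above 0.

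Of 30 other targets of interferon gamma 27 were tested, 14 fell and 2 rose (13.0% and 10.3% over all genes), with a median of −0.42. For MHC class II, H2-Ab1 fell to 32.5% of WT, H2-Aa to 11.1% and the invariant chain gene Cd74 to 11.3%, and B2m, the light chain of MHC class I, to 67.9% (159812 ± 1386 against 108525 ± 13599.5). H2-D1, a class I heavy chain gene, did not pass the test (84.7%, limma adjusted p = 0.0714). Ifi30, a lysosomal thiol reductase of antigen processing, rose from 674, 648 and 626 to 1157, 1342 and 1106, 185% of WT.

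The type I interferon pathway shares the ISRE. Of 20 listed signalling genes 17 were tested, 9 fell and 0 rose (13.0% and 10.3% over all genes), with a median of −0.61. None was higher at an unadjusted p below 0.05 or in edgeR or DESeq2. Irf7, an amplifier of the response, stood at 560.3, 329 and 573 in WT and 106, 108 and 114 in KO, and Mavs, an adaptor of RNA sensing, fell to 65.5%. Ifna4 and Ifnb1 were at 0 in all libraries. Of 28 listed type I targets 27 were tested, 19 fell and 0 rose (median −1.72), with 1 higher at an unadjusted p below 0.05 and 0 in edgeR and DESeq2. The RNA helicase genes Ddx60 and Dhx58 fell to 24.9% and 48.2% of WT.

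IRGs and GBPs work with autophagy factors that target them to vacuoles and with inflammasome parts that act after them. All 26 such genes found in the files were tested, 5 fell and 2 rose, with a median of −0.18. Over all genes tested, 13.0% fell and 10.3% rose, so these counts are not far from that background. Il18, a cytokine matured by inflammasomes, fell from 536, 472 and 507 to 22.5, 85.5 and 42.3. The ubiquitin-like gene Gabarapl1 fell to 63.8%, while Atg12, of the conjugate that directs IRGs to vacuoles, rose to 138%.

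By a rule of likeness, the root mean square difference over the 6 libraries between a gene's centred log2 values and the mean of the 10, the closest of 13293 genes were H2-Ab1 (0.0857), Ppfibp2 (0.0916), Zfp951 (0.108), Rnu3b4 (0.110) and Rnu3b2 (0.112). The members themselves lay between 0.253 (Gbp2) and 1.26 (Gbp9) from their own mean, so that mean describes none of them closely. H2-Ab1 stood at 5143, 4446 and 4051 in WT and 1376, 1532 and 1525 in KO.

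IRG and GBP genes are expressed in many immune cells, and genes listed as markers of other cell types moved between the same groups. Over all genes tested, 13.0% fell and 10.3% rose. Of 14 tested macrophage and monocyte markers 5 fell and 0 rose, with summed values of 105002 to 137295 in WT and 77921 to 94418 in KO. Among dendritic cell markers 6 of 10 fell (948 to 1008 against 287 to 424), and among B cell markers 4 of 8 fell (31471 to 54363 against 5829 to 7179), with Pax5 and Ebf1 at 0 in all libraries. For T and NK cell markers, 7 of 14 fell and Nkg7 rose, with sums of 35048 to 36624 in WT and 42168 to 44727 in KO and Cd8a at 0 throughout. Genes listed as endothelial and stromal markers fell in 6 of 7 (7043 to 7873 against 2169 to 4386). Cdh5, an endothelial gene of that list, was at 0, and whether the others mark such cells here was not tested. The part of these cell types, of the fall in stem cell genes and of the rise in granulocyte progenitor genes in the result was not tested.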

How the data were processed

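Per the labels' protocols, RNA was isolated by Trizol, and a VAHTS mRNA-seq kit served for the poly(A) libraries. The submitters' processing notes name HISAT2, StringTie, mm10 and mm8, with no version or role. The sources used here give neither read length, strand and counting nor how reads that match several genes were treated. Each deposited file holds 1 signal per gene, headed expression. Within 0.01 of a read, 100% of the values were whole multiples of a step of their library, so whole reads could be recovered, 37951985, 48665968 and 47815466 in WT and 46033994, 50992981 and 58692037 in KO replicates 1 to 3. Floors are 3 reads in each library and, without molecular identifiers, cover only counting error. All 49035 identifiers whose version matched GENCODE M21 had its coordinates too, so positions are GRCm38 (mm10), and exon lengths were taken from M21.

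KO was compared with WT with limma 3.58.1 (in R 4.3.3; moderated two-sided test with a trend in intensity) on log2(value + 1) for 20136 genes, with Benjamini-Hochberg adjustment over all of them and a threshold of 0.05. Fold changes on that scale understate changes of low genes. Every pair of libraries differed by more than sampling noise (chi-square per degree of freedom of at least 38.0), so each counted once. The test was also run on simulated libraries, 5 times, where the median number of genes was 23001. There it recovered 94.2% of genes changed 2-fold and 100% of those changed 4-fold, and 4.05% of its calls were false. These rates describe the simulated data only. Whether they hold for the real libraries, where 20136 genes were tested and the spread differed from gene to gene, was not tested. Alternatives were edgeR 4.0.16 and DESeq2 1.42.0 on recovered reads, TMM, upper quartile and quantile scaling, no trend, robust eBayes, library quality weights, a pseudocount of 0.1, no filter, a minimum of 5, a replicate block, leaving out each library, a 2-fold threshold and a 1 Mb window for neighbouring genes. Counts of family genes without those at 0 in all KO libraries, and of neighbours without Gm43302, were added after seeing the data.

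The members, gene lists and alternatives were chosen with earlier results of these data known. Named are all members, Ppp2ca, other family genes with a mean of at least 5 in a group, and from each list up to 4 genes with the smallest p and up to 2 with the largest mean. The other genes of interferon gamma signalling that are named, Gm43302, Abcg3, Lrrc8c and the pairs for ratios were chosen after their values were seen. Promoters (250 bases before the start) come from a RefSeq table and were searched and aligned with Biopython 1.88 in Python 3.11.15. Some genes that the rule takes are counted but not reported here by name.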

Additional observations from a re-analysis of the deposited data

How the results depend on the processing

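All 18 alternative fits kept the direction of all 10 members, and of the 8 members called, Irgm1, Igtp, Iigp1, Tgtp2, Gbp2 and Gbp9 kept their call in each. Leaving out 1 library called 6 to 8 members lower, 1617 to 2548 genes lower and 978 to 1808 higher of all genes (against 2622 and 2069 with all libraries), 0 to 1 interferon gamma signalling genes higher, 1 to 2 of the other interferon gamma targets higher, and 3 to 6 neighbours higher. The lowest counts came without WT replicate 1 (lower) and without KO replicate 3 (higher); without WT replicate 3 and KO replicate 3, 1723 and 1639 genes were lower. A 2-fold threshold left 1671 genes lower and 493 higher, 4 members, 3 signalling genes lower and 0 higher, 6 other targets lower and 1 higher, and 5 neighbours lower and 1 higher. Without the intensity trend, 1071 genes were higher, 4 signalling genes lower and 0 higher, 5 other targets lower and 1 higher, and 1 neighbour higher. Library quality weights called 3198 genes, 4 signalling genes and 11 neighbours higher. Signalling genes called higher numbered 3 under upper quartile scaling and 0 under quantile normalization, and neighbours 8 under quantile normalization and 10 in DESeq2. A pseudocount of 0.1 and no filter each called 1 other target higher. A window of 1 Mb held 107 tested neighbours, of which 15 fell and 7 rose, against 9 and 5 of 61 within 500 kb. The 2-fold threshold and the wider window change what is counted, and the cause of the shifts between fits was not tested. The median log2 fold change of all genes lay between −0.07 (DESeq2) and 0.09 (quantile normalization).

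WT and KO share replicate numbers, but same-numbered libraries did not deviate together (correlations of −0.02, −0.01 and −0.02). No pairing by number was seen, which cannot show whether same-numbered libraries were prepared together. With the replicate number as a block, 7 members, 2157 of all genes, 14 other family genes, 7 signalling genes, 13 other targets and 8 neighbours were lower, and 1705 genes higher. Depth limits the KO values of Gbp9 and of the other chromosome 5 GBP genes, which rest on few reads.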

Other observations

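Gvin1, a very large interferon-inducible GTPase gene on chromosome 7, stood at 1967, 1339.9 and 1225 in WT and at 2.14, 1075 and 846 in KO, so that KO replicate 1 was almost without reads while the other KO libraries were not. It did not pass the test (log2 fold change −3.38 ± 1.99, limma adjusted p = 0.271). Of its 50-base words 98.3% also occur in the neighbouring Gm4070, named after its values were seen, which stood at 1962, 1288 and 1222 in WT and 536, 1095 and 839 in KO (adjusted p = 0.0616). The summed value of the pair was 538, 2170 and 1684 in KO, against 3929, 2627 and 2447 in WT, so KO replicate 1 was the lowest by the sum too.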
